A study of Mus musculus with 48 samples.

Results

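The genes examined here make cholesterol, sense how much of it a cell holds, or move it into, through and out of the cell. They were chosen by name and not by a cut on their values, but with earlier results of these data known. A gene was measured by the probesets (sets of probes against one transcript) that carried its symbol and no other in the array's annotation. Of 30 genes named, 29 had such a probeset (31 probesets of the 35556 on the array, and 29 of 19938 genes with a probeset of their own). Acat2 had none and is not analysed here. The 29 genes comprised 17 synthesis enzymes, 4 sterol sensing genes and 8 genes of sterol movement and efflux. Idi1 and Fdft1 had 2 probesets each, which gave the same direction in each comparison described below, except in HZ against WT mice within saline, where 1 probeset of each gene lay just above 0 and the other just below. For such genes the probeset with the higher mean stands for the gene.

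RNA from the livers of 48 male mice had been hybridized to Affymetrix Mouse Gene 1.0 ST arrays, 1 array per mouse, to find how chronic valproic acid (VPA) acts on the liver when Wfs1 is impaired. Wolframin, the product of Wfs1, sits in the membrane of the endoplasmic reticulum. The 6 groups, of 8 mice each, were VPA treated and saline treated mice that were homozygous for the Wfs1 mutation (KO, Wfs1 -/-), heterozygous (HZ, Wfs1 +/-) or wild type (WT, Wfs1 +/+). The drug was given intraperitoneally each day at 300 mg/kg, and controls had saline at 10 mL/kg, for 12 weeks from an age of 4 to 6 weeks. All 48 mice, controls included, had a glucose tolerance test (2 g/kg) 24 hours after the last injection, and their livers were taken 24 hours after that test, at 16 to 18 weeks of age. The samples therefore hold RNA from 48 hours after the last dose. The mutation disrupted only 2 exons of Wfs1, and the probeset of Wfs1 also covers the intact ones, so its difference of -0.15 between KO and WT mice (adjusted p = 0.32 from limma) does not check the labels.

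Cholesterol is built from acetyl-CoA. The mevalonate pathway turns it into isoprene units, squalene is made from these and closed into lanosterol, the first sterol, and a last chain of enzymes trims lanosterol to cholesterol. The liver makes and exports much of the body's cholesterol. The transcription factor SREBP-2, encoded by Srebf2, switches on nearly all of these enzymes. When sterols are plentiful, the proteins of Insig1 and Insig2 hold SREBP-2 and its escort Scap in the endoplasmic reticulum, where the factor is inactive. The oxysterol receptor LXR alpha, encoded by Nr1h3, switches on genes of efflux such as Abca1, Abcg5 and Abcg8.

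The values are on the log2 scale after RMA, an array normalization, so a difference of 1 means a 2-fold difference in signal. The median of an array lay between 6.90 and 7.03, and pairs of arrays correlated with r between 0.971 and 0.994. In each comparison the median of all probesets lay within 0.04 of 0. Of 8 hepatocyte markers 7 were measured, each with a mean of at least 13.1 over the mice. The means of single markers of other cells ran between 6.65 and 10.6 for 11 Kupffer cell markers, 8.05 and 11.4 for 8 endothelial markers and 7.15 and 9.98 for 7 stellate cell markers.

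The starts of the synthesis genes shared a short sequence. RefSeq promoters of build GRCm38.p6 were at hand for 23 of the 29 genes. The 250 bases before the start were searched on both strands for the letters CCAAT (the box bound by NF-Y, a known partner of SREBP-2), TCACNCCAC (one spelling of the sterol regulatory element), CACGTG (the E-box) and AGGTCA (the nuclear receptor half-site). CCAAT stood at a start of each of the 14 enzymes with a promoter, against 33.8% of all 32851 promoters. Counted over starts rather than genes, 14 of 17 starts of these enzymes held it (82.4%), since some genes have several. Among sensing genes Srebf2, Insig1 and Insig2 held it, and among 5 genes of movement and efflux Abcg8 and Lcat did. TCACNCCAC was found for Hmgcs1 alone of the 23 genes (1.05% of all promoters). CACGTG was found for 6 genes, Hsd17b7, Sc5d, Dhcr7, Scap, Insig1 and Abca1 (6.02% of all promoters). AGGTCA was found for Hmgcs1, Dhcr7 and Insig1 (14% of all promoters), in Insig1 sharing letters with the E-box. These are matches of letters and not sites shown to be bound.

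Windows of 6 genes are printed because the values of their genes carry the results below. They run 5' to 3' on the strand of the gene, and each ends at the base before the start. Capitals mark the matches. In all 6 windows these are CCAAT on either strand, and in Hmgcs1 they include the half-site near the left end, on the other strand, and the sterol element that follows the second CCAAT match. Insig2 has 3 starts in RefSeq, and only the printed one held a match. The windows lie, in GRCm38.p6, for Hmgcs1 at chr13:119690101-119690350 (plus strand), for Mvk at chr5:114444019-114444268 (plus strand), for Idi1 at chr13:8885356-8885605 (plus strand), for Cyp51 at chr5:4104698-4104947 (minus strand), for Msmo1 at chr8:64733579-64733828 (minus strand) and for Insig2 at chr1:121332590-121332839 (minus strand).
Hmgcs1: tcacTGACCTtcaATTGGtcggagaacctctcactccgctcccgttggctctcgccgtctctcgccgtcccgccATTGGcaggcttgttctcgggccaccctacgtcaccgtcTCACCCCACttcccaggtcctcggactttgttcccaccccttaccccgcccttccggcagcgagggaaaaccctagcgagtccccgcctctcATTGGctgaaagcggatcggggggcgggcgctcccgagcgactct
Mvk: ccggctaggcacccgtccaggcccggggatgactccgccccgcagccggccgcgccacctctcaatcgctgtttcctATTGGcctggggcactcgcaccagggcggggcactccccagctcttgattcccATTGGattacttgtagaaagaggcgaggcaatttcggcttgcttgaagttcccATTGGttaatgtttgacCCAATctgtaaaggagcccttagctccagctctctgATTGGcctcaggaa
Idi1: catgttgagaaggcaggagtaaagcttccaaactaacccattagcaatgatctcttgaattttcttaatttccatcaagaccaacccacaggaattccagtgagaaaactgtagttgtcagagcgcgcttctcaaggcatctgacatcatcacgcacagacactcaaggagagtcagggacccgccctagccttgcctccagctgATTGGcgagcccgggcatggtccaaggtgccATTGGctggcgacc
Cyp51: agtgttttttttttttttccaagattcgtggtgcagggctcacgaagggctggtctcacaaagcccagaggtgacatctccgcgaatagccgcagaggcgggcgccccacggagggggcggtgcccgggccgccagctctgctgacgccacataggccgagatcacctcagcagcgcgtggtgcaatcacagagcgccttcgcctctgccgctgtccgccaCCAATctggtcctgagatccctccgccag
Msmo1: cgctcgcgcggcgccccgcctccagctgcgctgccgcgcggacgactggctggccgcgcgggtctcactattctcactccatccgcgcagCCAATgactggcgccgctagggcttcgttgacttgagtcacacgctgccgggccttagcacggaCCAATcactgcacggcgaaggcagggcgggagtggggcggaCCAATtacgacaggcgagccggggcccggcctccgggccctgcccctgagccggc
Insig2: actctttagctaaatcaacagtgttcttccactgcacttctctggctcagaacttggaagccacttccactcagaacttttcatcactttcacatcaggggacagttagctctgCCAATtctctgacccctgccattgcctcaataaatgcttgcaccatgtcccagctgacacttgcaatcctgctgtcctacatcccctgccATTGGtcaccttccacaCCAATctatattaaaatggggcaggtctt

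Across the 29 genes, few passed an adjusted p under 0.05, the threshold used for every statement that a gene rose or fell. With VPA, 2 of 29 rose over the 3 genotypes, Insig2 and Sc5d (8.61% of all probesets passed, 4.01% upwards), and none fell. In KO mice 1 of 29 fell relative to WT mice over both treatments, Insig2 (2.94% of all probesets, 1.57% downwards). In HZ mice 0 of 29 passed in limma (0.00281% of all probesets), and 1 had an unadjusted p under 0.05 (5.4%). The interaction, which tests whether the VPA effect differed among genotypes, passed for 0 of 29 in limma (0.0816% of all probesets), while 12 of 29 had an unadjusted p under 0.05 (7.89% of all probesets).

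Among the 17 synthesis enzymes the differences between VPA and saline mice were mostly above 0 in KO mice and mostly below 0 in HZ mice. In KO mice all 17 were above 0, with a median of 0.36 (0.11 to 0.72). In HZ mice 3 of 17 were above 0, with a median of -0.24 (-0.57 to 0.02), and in WT mice 14 of 17 were, with a median of 0.10 (-0.10 to 0.39). Without HZ VPA replicate 2 alone the median in HZ mice was -0.15, with 4 of 17 above 0 and 1 at an unadjusted p under 0.05, against 6 with all mice. Without HZ saline replicate 2, 3, 5 or 8 that count was 2 or 3. In KO mice 0 of 29 members passed the adjusted test in limma (0.0112% of all probesets), but 15 of 29, 12 of them enzymes, had an unadjusted p under 0.05 with a higher value, against 3.66% of all probesets. In HZ mice 3 of 29 members passed (10.5% of all probesets), of which the only enzyme was Msmo1, which fell, and 9 of 29, 6 of them enzymes, had an unadjusted p under 0.05 with a lower value, against 18% of all probesets. In WT mice 0 of 29 passed in limma (0.0703% of all probesets), and 4 had an unadjusted p under 0.05 (5.55%). The enzymes move together from mouse to mouse, as shown further below, so their counts are not 17 separate observations.

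**Figure D1:**
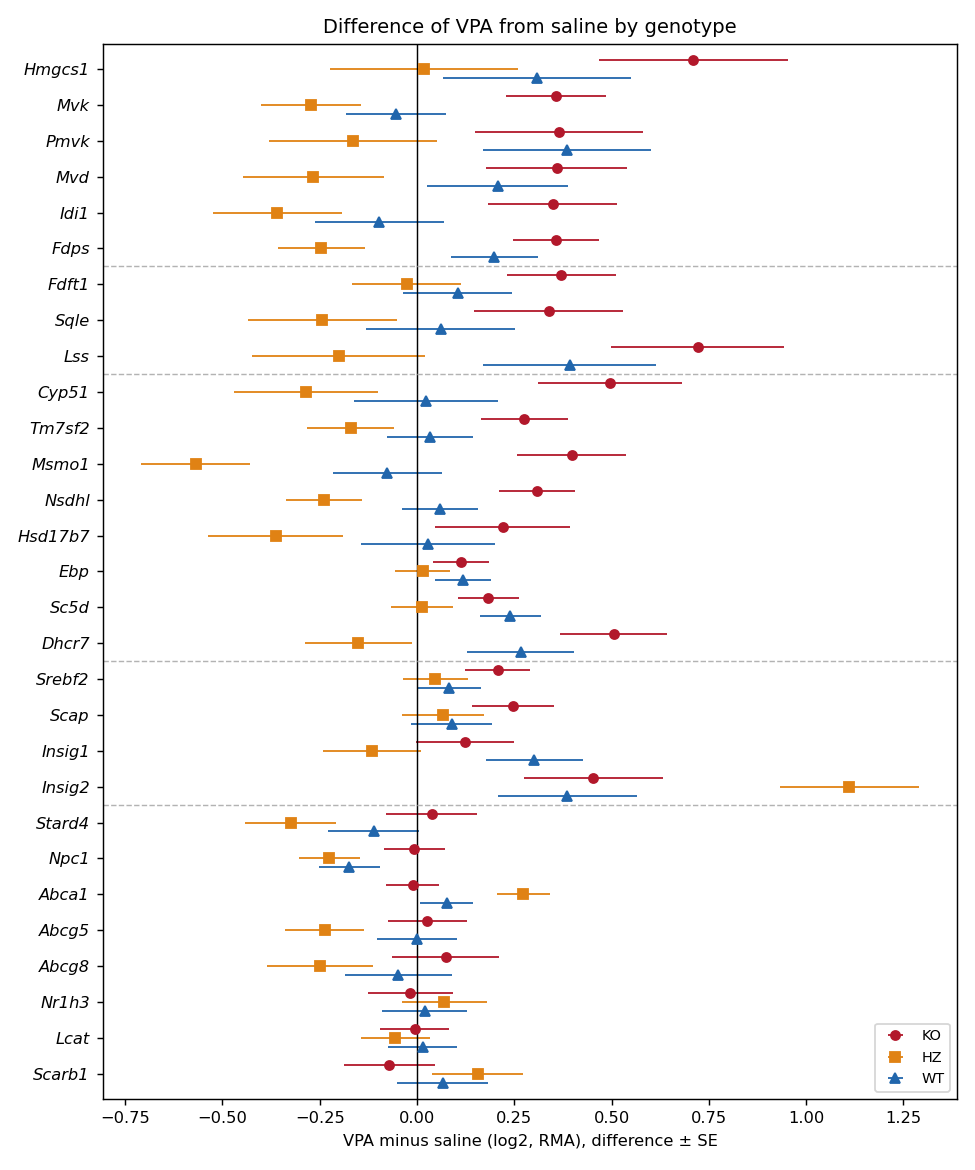
Differences between VPA and saline mice on the log2 scale (x axis, point and bar are the difference and its standard error) for the 29 genes, in KO, HZ and WT mice, with dashed lines between the mevalonate, squalene, lanosterol, sensing and movement groups. In KO mice all 17 enzymes lie above 0 (median 0.36), in HZ mice 14 lie below 0, and Insig2 in HZ mice stands farthest to the right at 1.11.

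The difference of the VPA effect between KO and HZ mice was tested directly. It was above 0 for all 17 enzymes, with a median of 0.60 (0.10 to 0.97), and 13 had an unadjusted p under 0.05 (5.69% of all probesets did with a higher value). Msmo1, which oxidizes methyl groups of the sterol ring so that they can be removed, passed after adjustment (0.97, SE 0.20, adjusted p = 0.0165 from limma), where 0.214% of all probesets passed. For 0 of 29 members did the VPA effect differ between KO and WT mice or between HZ and WT mice at an adjusted p under 0.05 in limma (0% of all probesets in both), although 2 and 8 members had an unadjusted p under 0.05 (2.74% and 7.75% of all probesets). The sign of all 17 held without any one of the 48 arrays. Since KO and HZ mice are each compared with their own saline mice, these effects share no samples.

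As a mean over the 17 enzymes, each first centred on its own mean over all mice, KO mice had 0.12 ± 0.18 with VPA and -0.26 ± 0.29 with saline (SD, n = 8 each). HZ mice had -0.10 ± 0.26 with VPA and 0.10 ± 0.30 with saline, and WT mice had 0.13 ± 0.20 with VPA and 0.00 ± 0.21 with saline. The saline treated KO mice thus had the lowest mean, but with a range of -0.67 to 0.20 they overlapped with each of the other groups. The scale is relative, so 0 means the average over all mice and not absence.

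KO mice were compared with WT mice within each treatment. Among saline mice, 13 of 17 enzymes were below 0, with a median of -0.27 (-0.68 to 0.21), and 9 of 29 members, 8 of them enzymes, had an unadjusted p under 0.05 with a lower value (4.65% of all probesets). Mvk and Msmo1 passed after adjustment and fell, while 0.79% of all probesets passed and 0.498% did so downwards. Among VPA mice 8 of 17 enzymes were above 0, with a median of -0.03 (-0.24 to 0.29), no enzyme had an unadjusted p under 0.05, and 0 of 29 members passed in limma (0.405% of all probesets, with 3 members at an unadjusted p under 0.05, against 7.91%). The difference between these comparisons is the same quantity as the KO minus WT difference of the VPA effect, for which no member passed.

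**Figure D2:**
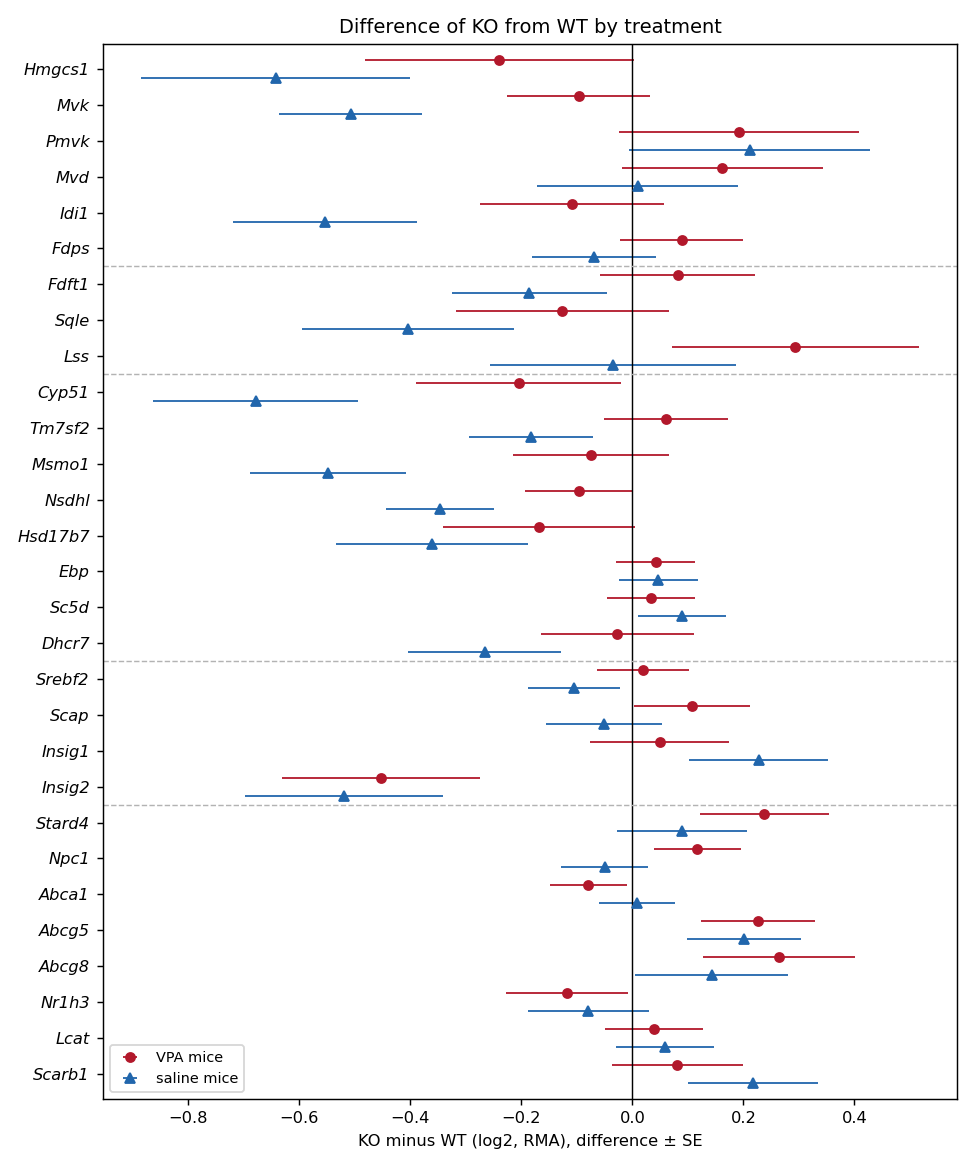
Differences between KO and WT mice on the log2 scale (x axis, point and bar are the difference and its standard error) for the 29 genes, among VPA mice and among saline mice. Among saline mice Cyp51 (-0.68), Hmgcs1 (-0.64), Msmo1 (-0.55) and Mvk (-0.51) lie far to the left, and Insig2 lies left in both treatments.

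Of the mevalonate pathway, Hmgcs1 makes HMG-CoA and Mvk puts the first phosphate on mevalonate. Mvk had log2 values from 8.34 to 8.97 (median 8.74) in saline treated KO mice, against 8.87 to 9.81 (median 9.19) in saline treated WT mice. In VPA treated mice it had 8.90 to 9.31 (median 9.03) in KO mice, against 8.81 to 9.64 (median 9.24) in WT mice. In HZ mice it had 8.42 to 9.36 (median 9.02) with VPA, against 8.93 to 9.81 (median 9.33) with saline. In saline mice 5 of 8 KO values lay below every WT value, whereas in VPA mice the KO values lay within the WT range. Mvk fell by 0.51 in KO mice among saline mice (SE 0.13, adjusted p = 0.0409 from limma), and the difference among VPA mice was -0.10 (SE 0.13). The call was lost without any one of 10 arrays, and that of Msmo1 among saline mice, given further below, without any one of 11, while the differences stayed between -0.56 and -0.43 for Mvk and between -0.63 and -0.48 for Msmo1. The call of Mvk was also lost without moderation of variances (adjusted p = 0.0526) and in a fit of only the arrays compared (0.157). With VPA it differed by 0.36 in KO mice (SE 0.13, adjusted p = 0.476) and by -0.27 in HZ mice (SE 0.13, adjusted p = 0.152), neither of which passed, and in KO mice 7 of 8 VPA values were above every saline value.

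Hmgcs1 spread widely. It had 11.56 to 12.67 (median 12.30) in VPA treated KO mice, against 10.65 to 12.43 (median 11.55) in saline treated KO mice. In saline treated WT mice it had 10.98 to 12.63 (median 12.26). The VPA difference in KO mice was 0.71 (SE 0.24, unadjusted p = 0.00528, adjusted p = 0.422 from limma), with all 8 VPA mice above the saline mean, and it was 0.02 in HZ and 0.31 in WT mice (SE 0.24 each). Fdps, which makes farnesyl diphosphate, had 12.07 to 12.64 (median 12.30) in VPA treated KO mice, against 11.59 to 12.37 (median 11.97) in saline treated KO mice. In HZ mice it had 11.33 to 12.16 (median 12.05) with VPA, against 11.79 to 12.47 (median 12.26) with saline. In WT mice it had 12.03 to 12.55 (median 12.25) with VPA, against 11.83 to 12.39 (median 11.99) with saline. The groups overlapped in each genotype, and the VPA effect in KO mice minus that in HZ mice was 0.60 (SE 0.16, adjusted p = 0.0817), short of the threshold. Pmvk, Mvd and Idi1, which carry mevalonate on to isoprene units, differed with VPA by 0.35 to 0.37 in KO mice and by -0.36 to -0.16 in HZ mice without passing the test.

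**Figure D3:**
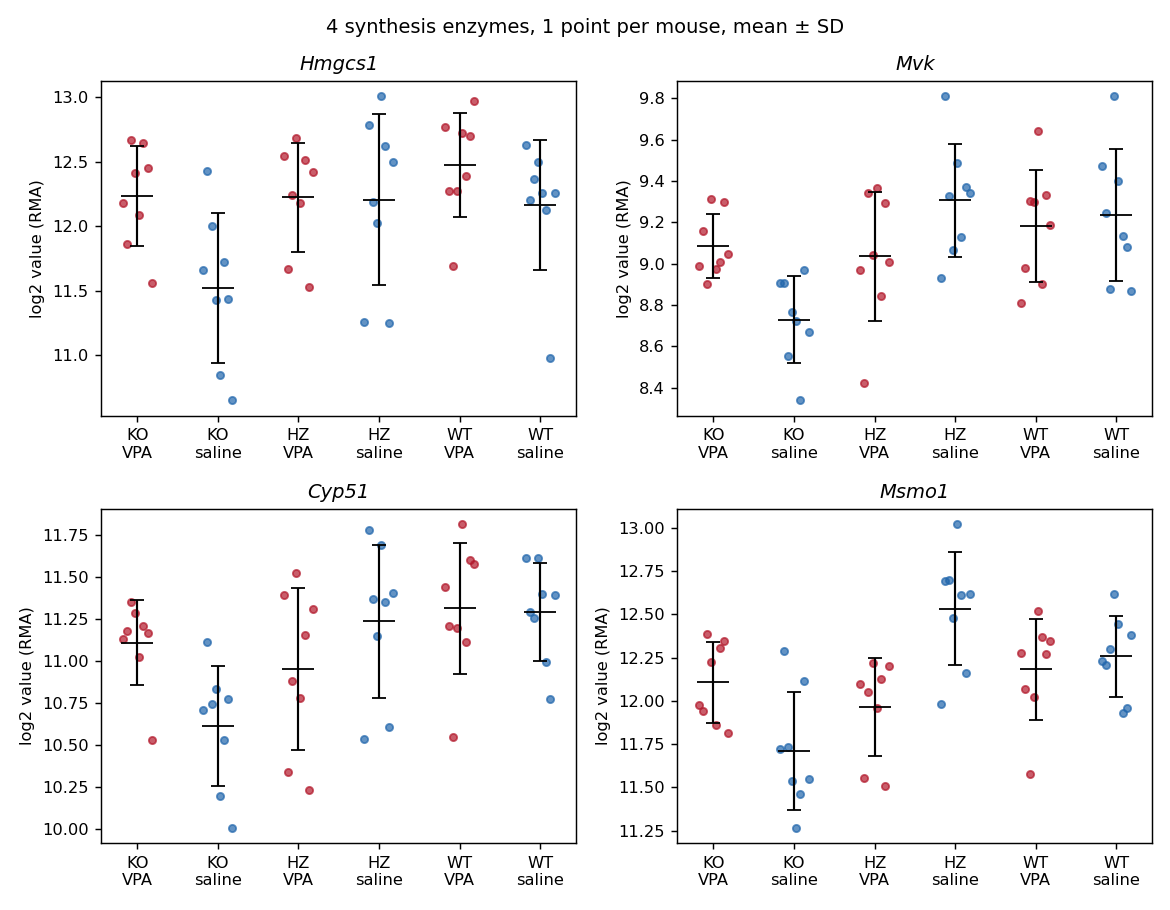
Log2 values of Hmgcs1, Mvk, Cyp51 and Msmo1 (y axis) in each mouse of the 6 groups (x axis), with the mean and SD of each group. The saline treated KO mice are the group with the lowest mean for these 4 genes, and for Msmo1 the saline treated HZ mice have the highest mean, 12.53.

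Of the squalene and lanosterol steps, Fdft1 joins farnesyl units to squalene, Sqle oxidizes squalene and Lss closes the ring. Their VPA differences in KO mice were 0.37 for Fdft1, 0.34 for Sqle and 0.72 for Lss, the largest among the enzymes (SE 0.22, unadjusted p = 0.0022, adjusted p = 0.343 from limma). Lss had 10.37 to 11.65 (median 11.07) in VPA treated KO mice, against 9.63 to 11.22 (median 10.10) in saline treated KO mice, which overlapped. In HZ mice the differences of the 3 genes were between -0.24 and -0.03. None of the 3 passed the adjusted test in any comparison.

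Of the enzymes after lanosterol, Msmo1 had the clearest differences. It had 11.81 to 12.39 (median 12.10) in VPA treated KO mice, against 11.26 to 12.29 (median 11.64) in saline treated KO mice. In HZ mice it had 11.51 to 12.22 (median 12.07) with VPA, against 11.98 to 13.02 (median 12.61) with saline. In WT mice it had 11.58 to 12.52 (median 12.28) with VPA, against 11.93 to 12.62 (median 12.26) with saline. The values overlapped in each of these pairs, but all 8 VPA treated HZ mice lay below the mean of the saline treated HZ mice, and all 8 VPA treated KO mice lay above that of the saline treated KO mice. Msmo1 fell by 0.57 with VPA in HZ mice (SE 0.14, adjusted p = 0.00788 from limma), while the difference in KO mice was 0.40 (SE 0.14, adjusted p = 0.46). Among saline mice it fell by 0.55 in KO relative to WT mice (SE 0.14, adjusted p = 0.0433), with 6 of 8 KO values below every WT value. That call was lost with the replicate number as a block (adjusted p = 0.0639), without moderation of variances (0.0565) and in a fit of only the arrays compared (0.151).

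Cyp51 takes the first methyl group off lanosterol. It had 10.00 to 11.11 (median 10.72) in saline treated KO mice, against 10.77 to 11.61 (median 11.34) in saline treated WT mice, and in VPA treated mice 10.53 to 11.35 (median 11.17) in KO mice, against 10.55 to 11.81 (median 11.32) in WT mice. Over both treatments 15 of 16 KO mice were lower than the mean of like treated WT mice. The difference was -0.44 over both treatments (SE 0.13, adjusted p = 0.0504 from limma) and -0.68 among saline mice (SE 0.19, adjusted p = 0.0657), and neither passed. In HZ mice Cyp51 had 10.23 to 11.52 (median 11.02) with VPA, against 10.53 to 11.78 (median 11.36) with saline, and the HZ minus WT difference over both treatments was -0.21 (SE 0.13, adjusted p = 0.966).

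Nsdhl, the sterol decarboxylase that works beside Msmo1, had 11.26 to 11.99 (median 11.77) in saline treated KO mice, against 11.86 to 12.22 (median 11.99) in saline treated WT mice. With VPA it had 11.67 to 12.32 (median 11.96) in KO mice and 11.39 to 12.09 (median 11.90) in HZ mice, against 11.79 to 12.28 (median 12.12) in saline treated HZ mice. VPA treated WT mice had 11.85 to 12.36 (median 12.04). Although 6 of 8 saline treated KO mice lay below every saline treated WT mouse, the difference of -0.35 did not pass (SE 0.10, adjusted p = 0.0813 from limma), nor did the KO minus HZ difference of the VPA effect, 0.55 (SE 0.14, adjusted p = 0.0752). Hsd17b7, the ketone reductase of the same complex, had 10.38 to 11.45 (median 10.91) in VPA treated HZ mice, against 10.75 to 11.58 (median 11.41) in saline treated HZ mice. In KO mice it had 10.73 to 11.76 (median 10.99) with VPA, against 10.10 to 11.30 (median 10.95) with saline. In WT mice it had 10.69 to 11.82 (median 11.23) with VPA, against 10.71 to 11.66 (median 11.30) with saline. The groups overlapped throughout. Its HZ minus WT difference over both treatments was -0.20 (SE 0.12, adjusted p = 0.965), so a difference could not be shown at this spread. Tm7sf2, Ebp and Dhcr7, which act on double bonds of the ring, differed with VPA in KO mice by 0.28, 0.11 and 0.51, and none passed.

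Sc5d, which adds a double bond to the ring of lathosterol, was the single enzyme that rose with VPA over the 3 genotypes. It had 12.98 to 13.26 (median 13.07) with VPA, against 12.53 to 13.13 (median 12.94) with saline in KO mice, and 12.97 to 13.20 (median 13.05) with VPA, against 12.62 to 13.10 (median 12.78) with saline in WT mice. In HZ mice it had 12.82 to 13.24 (median 12.92) with VPA, against 12.51 to 13.22 (median 12.99) with saline. The groups overlapped in each genotype, but 20 of 24 VPA mice exceeded the mean of saline mice of their genotype. The rise of 0.15 was small (SE 0.05, adjusted p = 0.0379 from limma), it lost its call without any one of 13 of the 48 arrays, and the difference was 0.01 in HZ mice (SE 0.08).

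Of the sensing genes, Insig2 changed most. It had 11.67 to 12.46 (median 11.94) with VPA, against 10.74 to 12.47 (median 11.65) with saline in KO mice. In HZ mice it had 12.22 to 12.71 (median 12.31) with VPA, against 10.34 to 12.04 (median 11.34) with saline. In WT mice it had 12.15 to 12.80 (median 12.53) with VPA, against 11.57 to 12.55 (median 12.14) with saline. The HZ groups did not overlap, which was so for 2 of 29 members (Insig2 and Npc1) and for 1.7% of all probesets, and the groups overlapped in the other genotypes.

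Insig2 rose by 0.65 with VPA over the 3 genotypes (SE 0.10, adjusted p = 3.15e-05 from limma), and each of 24 VPA mice exceeded the mean of saline mice of its genotype. Within HZ mice it rose by 1.11 (SE 0.18, adjusted p = 4.96e-05), in a comparison where 8 of 11 Kupffer cell markers also rose, as described below, and the differences of 0.45 in KO and 0.39 in WT mice did not pass (adjusted p = 0.565 and 0.85). The effect was not shown to differ between genotypes (interaction, adjusted p = 0.434). Insig2 fell by 0.49 in KO relative to WT mice over both treatments (SE 0.13, adjusted p = 0.0205), with 15 of 16 KO mice lower than the mean of like treated WT mice and like differences of -0.45 among VPA and -0.52 among saline mice (SE 0.18 each). Among saline mice it fell by 0.80 in HZ relative to WT mice (SE 0.18, adjusted p = 0.0324 from limma), where 0.304% of all probesets passed, with 5 of 8 HZ mice below every WT mouse. That call was lost without any one of 8 arrays, and the one in KO relative to WT mice over both treatments with array weights (adjusted p = 0.0767). Over both treatments the HZ difference of -0.43 did not pass (SE 0.13, adjusted p = 0.548).

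**Figure D4:**
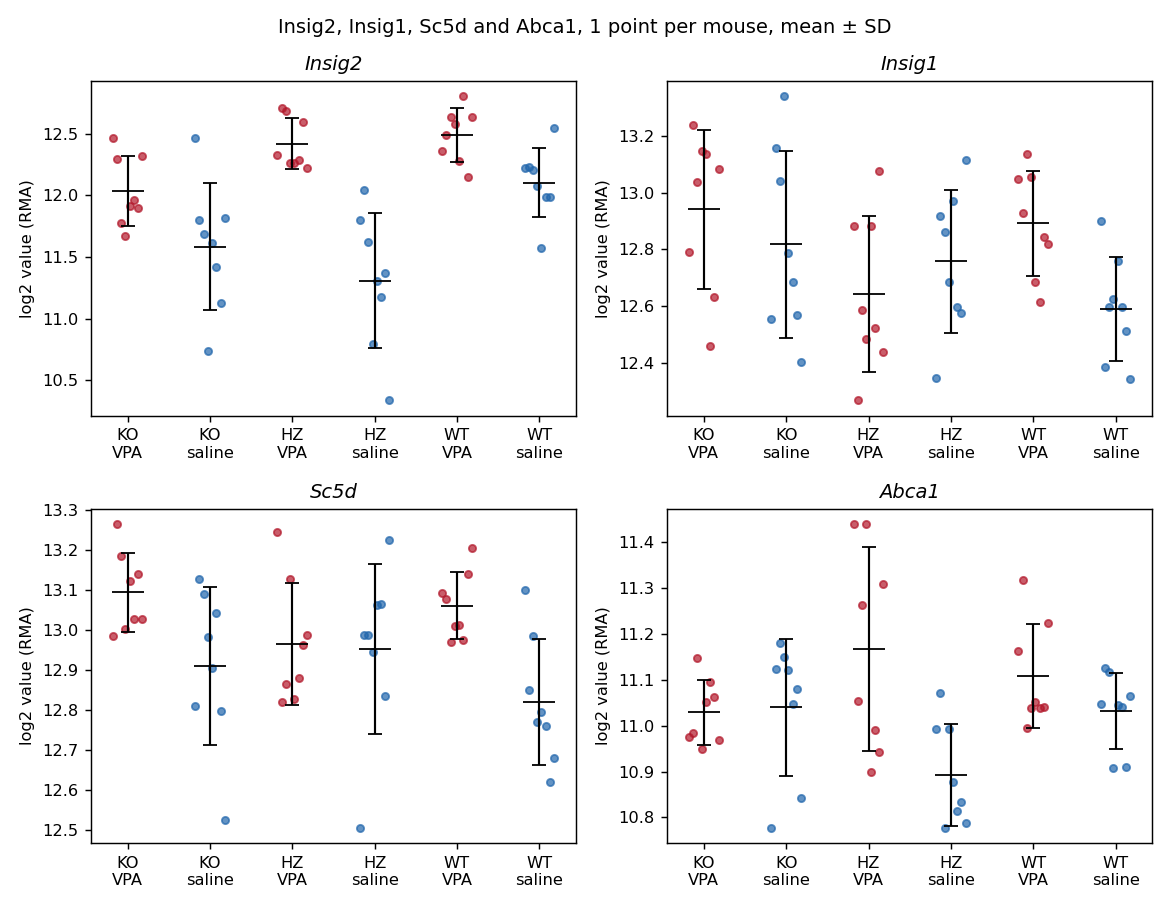
Log2 values of Insig2, Insig1, Sc5d and Abca1 (y axis) in each mouse of the 6 groups (x axis), with the mean and SD of each group. For Insig2 the VPA treated HZ mice (12.22 to 12.71) lie above all saline treated HZ mice (10.34 to 12.04), and Insig1 shows no such separation.

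Insig1, itself a target of SREBP-2, had 12.46 to 13.24 (median 13.06) with VPA, against 12.40 to 13.34 (median 12.74) with saline in KO mice. Its VPA differences were 0.12 in KO, -0.12 in HZ and 0.30 in WT mice (SE 0.13 each), and none passed. Srebf2 and Scap differed with VPA by 0.21 and 0.25 in KO mice and by 0.05 and 0.07 in HZ mice, without passing.

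The clock genes also differed between the groups. An index of clock phase per mouse, the signed mean of 12 measured clock genes of 13 listed, with activators counted upwards and repressors and output genes downwards, had a median of -0.48 in VPA and -1.07 in saline treated KO mice, 1.87 and -2.15 in HZ mice, and 1.98 and -0.61 in WT mice. In HZ mice its ranges of 1.02 to 2.23 with VPA and -2.76 to -1.40 with saline did not overlap. With the index as a covariate, the differences of Insig2 were 0.17 with VPA, 0.33 with VPA in HZ mice, -0.19 in KO mice and -0.43 in saline treated HZ mice, and none passed. With the same covariate the difference of Msmo1 with VPA was -0.35 in HZ mice, its KO minus HZ difference was 0.80 and the VPA difference of Sc5d was 0.02, and none of these passed either. The index differs so much between groups that it cannot be told apart from group in HZ mice. The same holds for KO against WT mice under VPA, whose ranges of -1.33 to 1.04 and 1.39 to 2.75 did not overlap. Saline treated HZ mice (highest -1.40) lay below all saline treated WT mice (lowest -1.26). In WT mice the VPA range (lowest 1.39) and the saline range (highest 1.42) barely overlapped. With the covariate the 17 enzymes all stayed above 0 for VPA in KO mice (median 0.35), and 0 members passed. For KO minus HZ all 17 were above 0 too (median 0.60), the lowest being Ebp at 0.03 (SE 0.14), and 0 members passed. Because index and group cannot be told apart in HZ mice, the KO minus HZ values do not show a difference apart from clock phase. Mvk and Msmo1 remained called in KO relative to WT mice among saline mice.

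Of the movement and efflux genes, Abca1, which loads cholesterol onto apolipoprotein A-I, was the single one called. It had 10.95 to 11.15 (median 11.02) with VPA, against 10.78 to 11.18 (median 11.10) with saline in KO mice, and 10.99 to 11.32 (median 11.05) with VPA, against 10.91 to 11.13 (median 11.05) with saline in WT mice. In HZ mice it had 10.90 to 11.44 (median 11.16) with VPA, against 10.78 to 11.07 (median 10.86) with saline. The HZ groups overlapped, though 4 of 8 VPA mice lay above every saline mouse. Abca1 rose by 0.27 with VPA in HZ mice (SE 0.07, adjusted p = 0.00896 from limma), and the differences were -0.01 in KO and 0.08 in WT mice (SE 0.07 each). The interaction did not pass (adjusted p = 0.49), and the difference in HZ mice was 0.22 and not called with the clock index as a covariate.

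Markers of other cells moved in the same mice as Insig2, Msmo1 and Abca1, the last of which is also made by macrophages and endothelium. In HZ mice 8 of 11 Kupffer cell markers (median difference 0.75), 6 of 8 endothelial markers (0.35) and 2 of 7 stellate cell markers (0.30) rose with VPA and none fell. Of all probesets, 4.72% rose and 5.76% fell in that comparison. Among the other sets, 1 of 7 hepatocyte markers rose. Of 4 bile duct cell markers 1 rose and 1 fell, and 1 of 4 adipocyte markers fell. Of the 3 genes listed as adrenal markers (Cyp11a1, Star and Cyp17a1) 2 fell (-0.33). The authors list Cyp17a1 among genes raised in the liver of KO mice, so this set does not stand for adrenal tissue alone. Over the 3 genotypes 6 of 11 Kupffer cell markers, 2 of 8 endothelial markers and 1 of 7 stellate cell markers rose with VPA (4.01% of all probesets did). In KO mice none of these markers passed (0.0112% of all probesets). The mean log2 value of the Kupffer cell markers ran from 8.92 to 9.49 (median 9.21) in VPA treated HZ mice, against 8.21 to 9.07 (median 8.54) in saline treated HZ mice, and that of the endothelial markers from 9.44 to 9.75 (median 9.62), against 9.09 to 9.40 (median 9.27). For the stellate cell markers it ran from 8.34 to 8.74 (median 8.45), against 8.10 to 8.38 (median 8.22), and for the adrenal markers from 6.50 to 6.87 (median 6.63), against 6.86 to 7.47 (median 7.17). No Kupffer, endothelial or stellate cell marker had a mean under 6.65, the lowest adrenal marker had 5.35, and the part of these cells in the results for the enzymes, Insig2 and Abca1 was not tested. In whole liver, fewer cells of a kind and less RNA per cell cannot be told apart.

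Npc1, which releases cholesterol from lysosomes, had 11.71 to 11.84 (median 11.79) in VPA treated HZ mice, against 11.87 to 12.10 (median 12.01) in saline treated HZ mice, without overlap. In KO mice it had 11.62 to 12.20 (median 11.87) with VPA, against 11.35 to 12.14 (median 11.95) with saline, and in WT mice 11.51 to 12.08 (median 11.78) with VPA, against 11.76 to 12.08 (median 11.99) with saline. The difference was -0.23 in HZ mice (SE 0.08, adjusted p = 0.0535 from limma) and -0.14 over the 3 genotypes (SE 0.05, adjusted p = 0.0503), both just short of the threshold. Stard4, a carrier of cholesterol in the cytosol, differed by -0.32 with VPA in HZ mice (SE 0.12, adjusted p = 0.0627).

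Abcg5 and Abcg8 together form the pump that puts sterols into bile. Over both treatments their KO minus WT differences were 0.21 and 0.20 (SE 0.07 and 0.10, adjusted p = 0.108 and 0.333 from limma), with 14 and 12 of 16 KO mice higher than the mean of like treated WT mice, and neither passed. With VPA in HZ mice they differed by -0.24 and -0.25, again without passing. Nr1h3, Lcat, which esterifies cholesterol in plasma lipoproteins, and Scarb1, the receptor for high density lipoprotein, differed by no more than 0.16 with VPA in any genotype.

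The enzymes varied together from mouse to mouse. After the mean of each group was removed, the 136 pairs of the 17 enzymes correlated over the 48 mice with a mean Pearson r of 0.55 (0.01 to 0.90), and 87 pairs had r above 0.5. The mean was 0.01 over all pairs of probesets on the array. That background takes in probesets with no symbol and any level of signal, so it does not show how unusual 0.55 is among strongly expressed liver genes. These correlations share arrays and mice, and are given as a description. Lss had the highest mean r with the other enzymes, 0.68, and Ebp the lowest, 0.38. Srebf2 had a mean r of 0.52 with the enzymes, Insig1 0.38 and Scap 0.35, while Insig2 had -0.23 and was below 0 with each of the 17. The 8 movement and efflux genes had a mean r of 0.09 among themselves (-0.63 to 0.84), and 6 of their 28 pairs had r above 0.5. Among these 6 were Nr1h3 with Lcat (0.84), Lcat with Scarb1 (0.81) and Nr1h3 with Scarb1 (0.62).

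**Figure D5:**
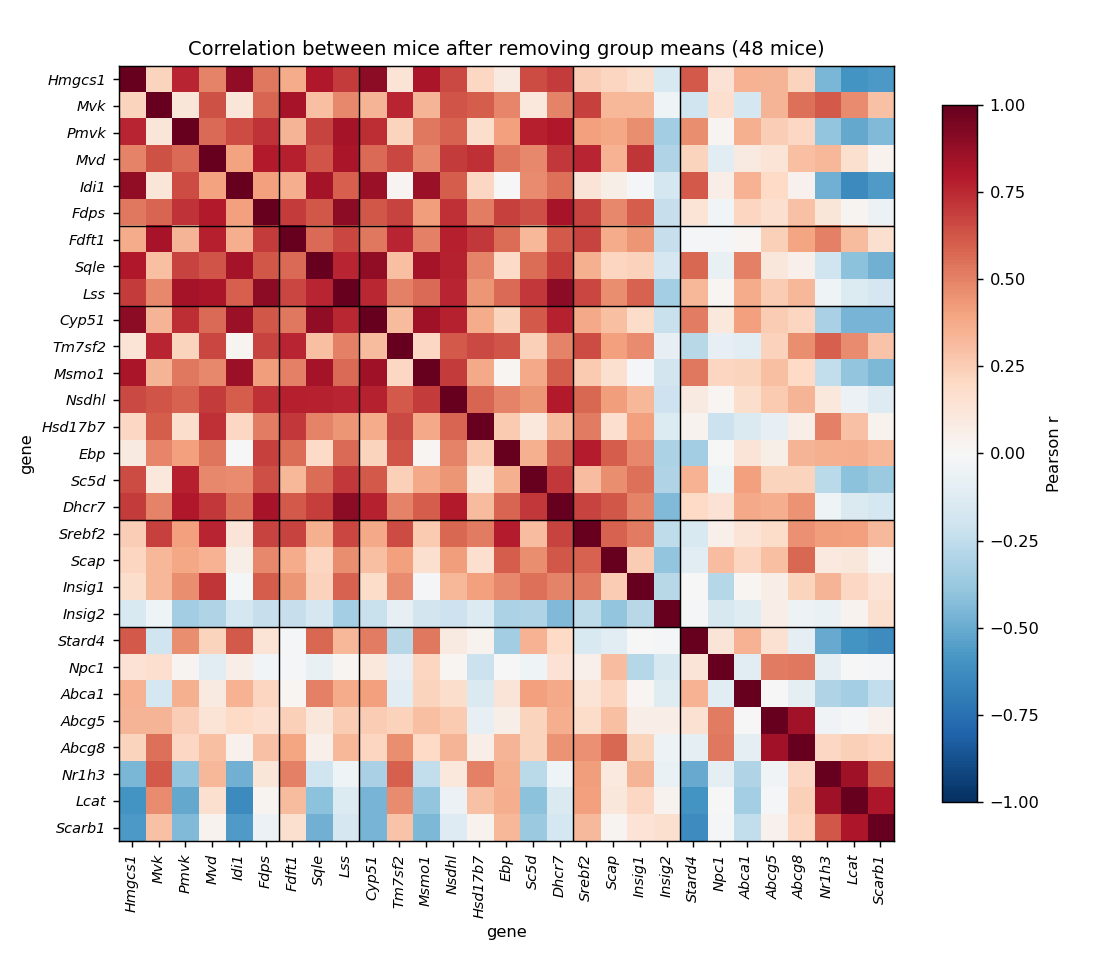
Pearson correlation over 48 mice between the 29 genes (both axes) after the mean of each group was removed, from -1 (blue) to 1 (red), with lines between the groups of genes. The 17 enzymes form a red block (mean r 0.55), Insig2 is pale blue against them (mean r -0.23), and Abcg5 and Abcg8 form a pair. Nr1h3, Lcat and Scarb1 also correlate with each other (0.62 to 0.84).

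The 6 pairs tested were enzymes of the same pathway, the Insig genes, the genes of a shared pump, or a regulator with a known target. Their p-values came from 100000 permutations of the mice and were adjusted over the 6. Hmgcs1 and Sqle had r = 0.80 and rho = 0.75, Idi1 and Cyp51 r = 0.87 and rho = 0.82, and Abcg5 and Abcg8 r = 0.84 and rho = 0.80, each with an adjusted permutation p = 2e-05 for both, from the smallest p that these permutations can give (1e-05). Without the 2 mice farthest from the median of the first gene r was 0.82, 0.83 and 0.82. The r was above 0 within each group of 8 mice, where the lowest was 0.59, 0.66 and 0.38, but it was not tested within groups. Insig1 and Insig2 had r = -0.28 (adjusted permutation p = 0.0666) and rho = -0.16 (0.282), and r = -0.21 without the 2 farthest mice. Srebf2 and Hmgcs1 had r = 0.25 (adjusted permutation p = 0.0883) and rho = 0.30 (0.0454), and r = 0.18 without the 2 farthest mice. Nr1h3 and Abca1 had r = -0.30 (adjusted permutation p = 0.0554) and rho = -0.30 (0.0454), and r = -0.25 without the 2 farthest mice, and within groups r ran from -0.85 to 0.05.

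The 2 further pairs with the clock index were added after the data had been seen and adjusted over those 2. Insig2 and the index had r = 0.38 (adjusted permutation p = 0.0162) and rho = 0.33 (0.0408) over the 48 mice after group means were removed, with r = 0.33 without the 2 farthest mice and r between 0.02 and 0.88 within groups. Hmgcs1 and the index had r = 0.09 (adjusted permutation p = 0.563) and rho = 0.10 (0.486).

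Other genes of sterol handling, 32 measured of 41 listed, are given beside the 29. They too were chosen with earlier results of these data known, so they are not a neutral background. In KO relative to WT mice over both treatments 2 rose and 2 fell (2.94% of all probesets passed). Vldlr, a lipoprotein receptor, rose by 1.08 and Srebf1, which drives fatty acid synthesis, by 0.49, while the bile acid and oxysterol enzymes Cyp7b1 and Cyp8b1 fell by 2.04 and 0.87 (adjusted p = 0.000274, 0.0198, 8.21e-07 and 7.8e-06 from limma). The authors had already listed Cyp7b1 and Cyp8b1 as lowered in KO mice, from these same arrays. With VPA over the 3 genotypes (8.61% of all probesets) 3 rose, namely Lpl by 0.68, Osbp by 0.19 and the lysosomal lipase Lipa by 0.15, and Cyp46a1 fell by 0.22. In HZ mice (10.5% of all probesets) 3 rose and 2 fell with VPA, among them Lpl by 1.16 and Cyp7a1, the rate-limiting enzyme of bile acid synthesis, which fell by 1.17 (adjusted p = 0.000351 and 0.00303). For 0 of the 32 did the interaction pass in limma (0.0816% of all probesets), and 8 had an unadjusted p under 0.05 (7.89%).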

How the data were processed

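RMA values were made by the authors (Affymetrix Expression Console, version 1.1.2800.28061), a step that corrects background, gives all arrays one distribution and summarizes each probeset. The deposited values are log2 values, and no further normalization was applied. The genome build of the arrays' design was not given in the sources used here. Limma (version 3.58.1, R 4.3.3) estimated the mean of each of the 6 groups over all 48 arrays and 35556 probesets (42 residual degrees of freedom), with eBayes moderation, two-sided p-values and Benjamini-Hochberg adjustment over all probesets. The number of arrays limits the precision. The annotation gave 1 symbol to 21789 probesets, several to 1621 and none to 12146.

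By rule, full values were given for members past the adjusted threshold in a comparison and for the 3 with the lowest p in KO against WT, HZ against WT, VPA against saline and the interaction. Hmgcs1, Lss, Insig1 and Stard4, the printed promoters and the motifs were picked after values were seen. The members and lists were chosen with earlier results of these data known. The fit was tested on simulated data. Alternatives were array weights, a trend with robust estimation, no moderation, centring each array, keeping probesets of 1 symbol only, dropping those below 5 in the mean of every group, a block for the replicate number, fits to only the groups compared, an adjusted p under 0.01, the clock index as a covariate, and leaving out each array. Mice with the same replicate number were not treated as pairs, since no source pairs them. Plots used matplotlib 3.10.9 (Python 3.11.15).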

Additional observations from a re-analysis of the deposited data

Results flagged for a closer look

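Single mice stood far below the rest of their group, by Dixon's criterion, in 8 of 174 sets of 8 mice (29 genes in 6 groups), where chance marks about 1 in 20 sets. HZ VPA replicate 2 accounted for 3 of these, with 11.33 for Fdps (next lowest 11.89), 11.75 for Fdft1 (next 12.23) and 10.33 for Tm7sf2 (next 10.91). Hmgcs1 was at 10.98 in WT saline replicate 7 (next 12.13) and Idi1 at 11.52 in WT VPA replicate 3 (next 12.25). Cyp51 was at 10.53 in KO VPA replicate 8 (next 11.02), Hsd17b7 at 10.10 in KO saline replicate 6 (next 10.74) and Npc1 at 11.35 in KO saline replicate 3 (next 11.87).

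The VPA effect on Msmo1 differed between KO and HZ mice by 0.97 (adjusted p = 0.0165 from limma), and was called in each fit that left out 1 of the 48 arrays. That call was lost with the clock index as a covariate (adjusted p = 0.493 from limma) and at an adjusted p under 0.01. The interaction, which takes all genotypes together, passed for 0 of 29 members, Msmo1 included.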

How the results depend on the processing

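In each setting tried 0 of 29 members were called in HZ against WT, in KO against WT within VPA, and with VPA within WT or within KO. No difference that was called in the main fit changed sign. Some that were not called did so with the clock index as a covariate. With VPA in HZ mice, Npc1 and Mvk then differed by 0.20 and 0.04, where the main fit gave values below 0. In KO against WT 1 member was called, against 5 with array weights, 4 with only probesets of 1 symbol, 3 with a group mean of at least 5, 2 with the replicate block, 2 with only the arrays compared, 0 at an adjusted p under 0.01 and 0 with the clock index. With VPA 2 were called, against 4 with array weights, 3 in 6 other settings, 1 at an adjusted p under 0.01 and 0 with the clock index. In the interaction 0 were called, against 2 with array weights and 1 with only probesets of 1 symbol. In KO against WT within saline 2 were called, against 3 with only probesets of 1 symbol, 1 with the replicate block and 0 without moderation, with only the arrays compared or at an adjusted p under 0.01. With VPA within HZ 3 were called, against 7 with array weights, 4 with a group mean of at least 5, 5 with only probesets of 1 symbol, 5 with the replicate block, 5 with only the arrays compared and 0 with the clock index. Leaving out 1 array gave 1 to 4 for KO against WT, 1 to 4 for VPA, 0 to 1 for the interaction, 0 to 4 for KO against WT within saline and 3 to 4 for VPA within HZ. Only the arrays compared was not run for VPA against saline and the interaction, which use all arrays.

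Within saline the calls in KO against WT lie near the threshold. Mvk lost its call without WT replicates 1, 2, 4, 5 or 6 or KO replicates 3, 4, 5, 6 or 8 (adjusted p = 0.0567 to 0.119 from limma), and Msmo1 without WT replicates 1, 2, 3, 4, 5 or 8 or KO replicates 3, 4, 5, 6 or 8 (0.0535 to 0.134). Insig2 in HZ against WT within saline lost it without WT replicates 2, 3, 4 or 8 or HZ replicates 4, 5, 6 or 8 (0.051 to 0.0927), and in KO against WT with array weights (0.0767). Sc5d lost it without saline WT replicates 7 or 8, HZ 1 or 7 or KO 1, 7 or 8, or VPA WT replicates 1 or 8, HZ 1 or 4 or KO 2 or 3 (0.0511 to 0.0639). Centring the arrays left 4 enzymes above 0 for VPA in HZ mice. Residuals of arrays with the same replicate number were slightly more alike than those of other arrays (mean r 0.05, others -0.01). They correlated above 0.1 in 53 of 120 pairs, and 11 of 48 arrays were closest to their own number. A link between mice of 1 number is therefore not excluded. Since no source pairs them, the main fit left the number out, and the calls with it as a block are given above.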
